A study of Cucumis melo with 8 samples.

Results

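miR167 is a conserved plant microRNA family, and 6 of the 116 miRNA names in the melon fruit table, cme-miR167a, cme-miR167b, cme-miR167c, cme-miR167d, cme-miR167e and cme-miR167f, belong to it. The members were taken by name, with earlier results of these data known. miR167a and miR167b share a mature sequence, as do miR167d and miR167f, so the 6 names stand for 4 of the 71 distinct mature sequences, and each distinct sequence was counted once. They are called miR167a/b, miR167c, miR167d/f and miR167e here. miR167d/f supplied most of the family's reads in every library, and its level showed no called difference between stages. miR167c, with a 1-base difference from miR167d/f at its 3′ end, was lower at 30DAF and at 40DAF than at 10DAF at the unadjusted threshold used for stages, and no miR167 sequence passed a test adjusted over all 71 sequences with the libraries scaled as deposited. Other scalings gave mixed results. Scaled on other miRNA families, miR167c passed at ripening against early stages and at 40DAF against 10DAF. Scaled on the clean reads of each library, miR167c passed at ripening against early stages only, and miR167a/b passed between the batches. Scaled by the median ratio over sequences, neither passed in these comparisons.

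Small RNA was sequenced from the mesocarp, the flesh, of ‘Flavor No. 4’, a variety of Hami melon, in fruits picked 10, 20, 30 and 40 days after flowering (DAF). The stages run from young and expanding fruit (10DAF and 20DAF, called early here) to premature and mature fruit (30DAF and 40DAF, called ripening here). Each stage has 1 library in the second batch and 1 in the first, 8 libraries in all. A library of the second batch came from 1 fruit, and a library of the first batch pooled the RNA of 3 fruits. The plants were untreated greenhouse plants of a single variety, pollinated by hand, and the batches also differ in year and sequencing instrument, which cannot be told apart here. The table lists miRNAs only, so the mesocarp label was not checked against marker genes.

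In Arabidopsis, miR167 guides the cleavage of mRNAs of the auxin response factors ARF6 and ARF8, transcription factors that switch on genes in response to auxin. Through them the family is known for its part in flower maturation, ovule development and the start of fruit growth. In plants a miRNA pairs with its target along nearly its whole length, and the bases near its 5′ end, the seed, tolerate mismatches least.

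The 4 mature sequences are shown to make plain how little separates the members. Each is 21 nt long and starts with T. They are written as DNA, 5′ to 3′, with bases 2 to 8, the seed, in capitals.
miR167a/b: tGAAGCTGccagcatgatcta
miR167c: tGAAGCTGccagcatgatctt
miR167d/f: tGAAGCTGccagcatgatctg
miR167e: tCAAGCTGccagcatgatcta
Counted from 1 at the 5′ end and against miR167a/b, miR167c carries A21T, miR167d/f carries A21G and miR167e carries G2C. The seed GAAGCTG is shared by 3 sequences, and no other sequence of the table has it. CAAGCTG occurs in miR167e only. Any 2 of miR167a/b, miR167c and miR167d/f are 1 base apart, and miR167e is 1 base from miR167a/b and 2 bases from the others. The nearest sequences of other families differ from a miR167 sequence at 10 or 11 bases.

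Reads were matched by the authors with up to 1 mismatch, which is the distance between these members, and how a read that fits several members was assigned is not given in the sources used here. The levels of the single members are therefore less certain than the family total.

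The study lists a hairpin precursor for each of the 6 names. All 6 names also occur as loci in RefSeq (USDA_Cmelo_AY_1.0), on 5 chromosomes, and the sequences were not compared. The listed hairpin has the length of its RefSeq locus in 5 of the 6, while MIR167d has 204 nt in the list and 233 nt in RefSeq. The mature sequence lies once in each listed hairpin, in the 5′ arm. Folded with RNAfold, the hairpins paired 16 to 19 of the 21 mature bases, with the lowest number in MIR167e, and their free energies ran from -31.8 kcal/mol in MIR167e to -60.3 kcal/mol in MIR167d. The hairpins of miR167b, miR167c, miR167d and miR167f are shown, in RNA letters with the mature sequence in capitals, because they hold the 3 sequences whose reads make up nearly all of the family and because miR167d and miR167f give the same mature sequence from different loops.
MIR167b: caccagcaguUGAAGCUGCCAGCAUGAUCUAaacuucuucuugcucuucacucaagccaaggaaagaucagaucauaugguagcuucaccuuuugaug
MIR167c: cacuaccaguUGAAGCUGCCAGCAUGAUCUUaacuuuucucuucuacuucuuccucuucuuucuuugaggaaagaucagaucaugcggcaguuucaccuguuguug
MIR167d: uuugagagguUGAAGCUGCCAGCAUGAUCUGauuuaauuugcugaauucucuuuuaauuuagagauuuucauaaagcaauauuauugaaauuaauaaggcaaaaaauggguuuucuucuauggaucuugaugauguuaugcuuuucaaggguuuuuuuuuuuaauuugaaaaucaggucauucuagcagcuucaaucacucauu
MIR167f: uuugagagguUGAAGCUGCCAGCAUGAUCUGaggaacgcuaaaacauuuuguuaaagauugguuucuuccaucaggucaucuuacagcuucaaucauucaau
MIR167d is 204 nt long and MIR167f is 102 nt long. A read of miR167d/f could come from either, so which locus was active at a stage cannot be told apart.

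Levels are TPM, here the reads of a sequence divided by a total for its library and scaled, with no division by length. That total, worked out from the value of a single read, was 105077 to 985322 reads in the second batch and 233131 to 410953 in the first. It is not the size of the library: it came to 2.48 to 15.4% of the clean reads in the second batch and 6.13 to 7.22% in the first, lowest at 30DAF and 40DAF of the second batch, and what it counts is not given in the sources used here. Comparisons were therefore also run with each library scaled on its clean reads, on the families other than the abundant miR159, miR319 and miR396, or by the median ratio over sequences. A library's floor is taken as 3 reads, which is 28.6 TPM at 30DAF and 22.2 TPM at 40DAF of the second batch and 3.04 to 12.9 TPM in the other 6 libraries. The floor and all counting intervals cover counting error only. Of the 4 sequences, miR167d/f was above the floor in all 8 libraries, miR167c in 5, miR167a/b in 4 and miR167e in 1. 3 of the 4 passed a filter of a mean of 10 TPM, miR167e being the exception. The p values below measure the spread between these libraries, 2 per stage.

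miR167d/f is the main form of the family in this flesh, with a mean of 169 TPM over the 8 libraries, the 21st highest of the 71 sequences. In the second batch it stood at 129, 171, 38.1 and 126 TPM at 10, 20, 30 and 40DAF. In the first batch it stood at 222, 169, 333 and 163 TPM. The 20DAF and 40DAF libraries of the batches were close to each other, and the 30DAF libraries were the lowest and the highest of all 8. The low 30DAF value rests on 4 reads, with a 95% exact Poisson interval of 10.4 to 97.5 TPM, which overlaps the interval of 1 other library, 73.4 to 202 TPM at 40DAF of the same batch.

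The stage means of miR167d/f were 176 ± 66.0, 170 ± 0.799, 186 ± 209 and 145 ± 26.2 TPM at 10, 20, 30 and 40DAF (SD, n = 2 each). The order of these levels was 30DAF, 10DAF, 20DAF and 40DAF, and no neighbours in it differed beyond their spread. Values were compared as log2(TPM + 5) with limma, in a single model of the 4 stages fitted on all 71 sequences. The ripening libraries averaged 165 ± 124 TPM and the early libraries 173 ± 38.2 TPM (SD, n = 4 each), a log2 fold change of -0.39 with a 95% interval of -2.05 to 1.28 (limma, adjusted p = 0.828). It was -1.55 scaled on other families (adjusted p = 0.197), -1.48 on clean reads (adjusted p = 0.361) and -0.76 by the median ratio (adjusted p = 0.596) in the same limma fit. As deposited the value was -1.13 without the 30DAF library of the first batch and 0.36 without the 30DAF library of the second, so its direction rested on 1 library. Within the batches the reads pooled over stages gave a ripening to early ratio of 0.566 in the second batch (95% interval 0.344 to 0.884) and of 1.40 in the first (1.11 to 1.77). These intervals hold counting error alone and do not meet, and the difference of the ripening change between the batches was -1.29 on the log2 scale (limma, adjusted p = 0.518).

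**Figure D1:**
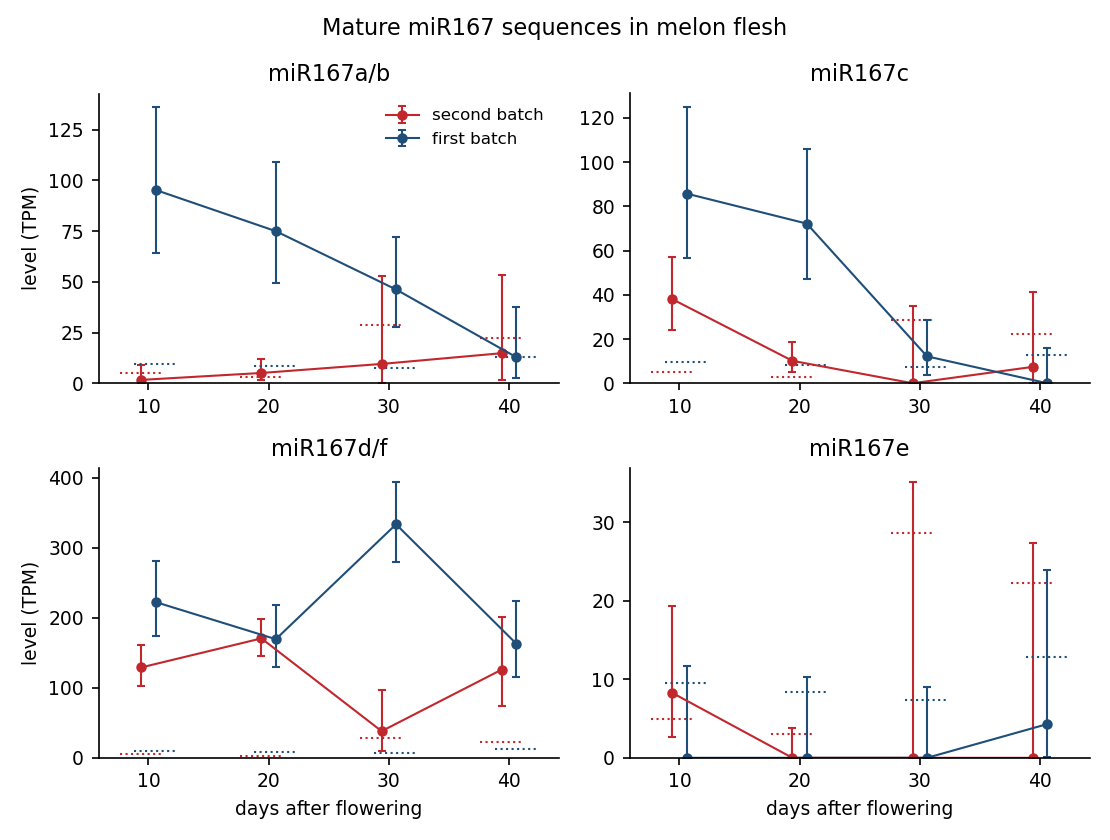
Level in TPM (y axis, a scale of its own in each panel) of the 4 distinct miR167 sequences against days after flowering (x axis), in the second batch (red) and the first batch (blue), 1 library per point. Bars are 95% exact Poisson counting intervals and dotted lines the level of 3 reads in that library. The measured value of miR167c is at or under 12.2 TPM in all 4 libraries of 30DAF and 40DAF. Its intervals there reach 35.1 and 41.3 TPM in the second batch. miR167d/f is above its dotted line in all 8 libraries.

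As deposited, miR167c was the only miR167 sequence called lower at ripening stages, and this was at the unadjusted threshold. In the second batch it stood at 38.1, 10.2, 0 and 7.41 TPM at 10, 20, 30 and 40DAF, which is 23, 10, 0 and 1 reads. In the first batch it stood at 85.8, 72.2, 12.2 and 0 TPM, which is 27, 26, 5 and 0 reads. In each batch both ripening values were below the 10DAF value, and the 30DAF library of the first batch alone among the ripening libraries exceeded an early one, the 20DAF library of the second batch. A library at 0 reads allows a level up to its floor, 28.6 TPM at 30DAF of the second batch and 12.9 TPM at 40DAF of the first. The measured 10DAF value of miR167c was 1.33 times the 30DAF floor in the second batch and 6.67 times the 40DAF floor in the first. These ratios leave out the counting error at 10DAF. In the second batch the exact Poisson intervals overlapped, 24.1 to 57.1 TPM at 10DAF and 0 to 35.1 TPM at 30DAF. That pair of libraries therefore sets no least decrease. In the first batch they did not overlap, 56.5 to 125 TPM at 10DAF and 0 to 15.8 TPM at 40DAF.

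The stage means of miR167c followed the order of the stages, 61.9 ± 33.7, 41.2 ± 43.9, 6.08 ± 8.61 and 3.71 ± 5.24 TPM at 10, 20, 30 and 40DAF (SD, n = 2 each), and no neighbouring stages differed beyond their spread. At 30DAF against 10DAF the log2 fold change was -2.75 (SE 1.14, limma, unadjusted p = 0.0485, adjusted p = 0.307). At 40DAF against 10DAF it was -2.99 (SE 1.14, limma, unadjusted p = 0.0363, adjusted p = 0.185). These 2 comparisons passed the unadjusted threshold (p under 0.05 with a fold over 1.5), which follows the study's own criteria for stages. At 40DAF the value passed on adjusted p when scaled on other families (-3.89, limma, adjusted p = 0.0455). It did not on clean reads (-3.74, limma, adjusted p = 0.107) or by the median ratio (-3.26, limma, adjusted p = 0.0914). The call at 30DAF was lost when any one of 5 libraries was left out, both of 10DAF, both of 40DAF and that of 30DAF in the second batch, with values between -3.29 and -1.86. The call at 40DAF was lost when any one of the 4 libraries of 10DAF and 40DAF was left out, with values between -3.64 and -2.33. In bulk flesh, fewer cells of a type and less RNA per cell cannot be told apart.

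Over ripening and early libraries together, miR167c averaged 4.90 ± 5.98 TPM and 51.5 ± 34.1 TPM (SD, n = 4 each). The log2 fold change was -2.44 (SE 0.81, 95% interval -4.37 to -0.51), with an unadjusted p of 0.0208 and an adjusted p of 0.125 by limma, and -3.02 to -1.85 without any one library. The value passed when scaled on other families (-3.16, limma, adjusted p = 0.0258) and on clean reads (-3.05, limma, adjusted p = 0.0438), but not by the median ratio (-2.70, limma, adjusted p = 0.0607). The median of all 71 sequences was 0.08 as deposited and -0.53, -0.47 and -0.12 under these scalings. Those passing on adjusted p numbered 4 as deposited and 7, 6 and 2 under these scalings. The other families include miR164, whose level rose with stage. It made up 12245 of 26247 TPM at 40DAF and 877 of 6234 TPM at 10DAF in the second batch. In the first batch it made up 11105 of 17728 TPM and 1715 of 10204 TPM. A sum that rises in this way lowers every sequence divided by it. For miR167c as deposited, 3 of the 4 ripening libraries lay below all 4 early ones. An exact two-sided permutation test with 35 arrangements gave p = 0.0571, where the smallest possible p is 0.0286. The pooled reads gave ripening to early ratios of 0.201 in the second batch (95% interval 0.00494 to 1.20, on 1 and 33 reads) and 0.0989 in the first (0.0308 to 0.246, on 5 and 53 reads). The totals behind the TPM values were smallest at the ripening stages of the second batch, and its interval holds 1. The difference of the ripening change between the batches was 1.48 on the log2 scale (limma, adjusted p = 0.565).

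miR167a/b was lower in the second batch than in the first at 10, 20 and 30DAF and close to it at 40DAF. In the second batch it stood at 1.65, 5.07, 9.52 and 14.8 TPM at 10, 20, 30 and 40DAF, on 1, 5, 1 and 2 reads. In the first batch it stood at 95.3, 75.0, 46.2 and 12.9 TPM, on 30, 27, 19 and 3 reads. The highest value was that of 40DAF in the second batch and that of 10DAF in the first, and 3 of the 4 libraries of the second batch and the 40DAF library of the first were at or under the floor. At 30DAF the exact Poisson intervals overlapped, 0.241 to 53.0 TPM in the second batch and 27.8 to 72.2 TPM in the first. At 40DAF they were 1.8 to 53.6 TPM and 2.65 to 37.6 TPM. The second batch averaged 7.77 ± 5.70 TPM and the first 57.3 ± 35.8 TPM (SD, n = 4 each). With stage as a covariate the log2 fold change was -2.14 (SE 0.75, limma, unadjusted p = 0.0290, adjusted p = 0.200), and the exact two-sided permutation test gave p = 0.0571, with 3 of the 4 second-batch libraries below all of the first. The value lay between -2.91 and -1.55 without any one library. It passed when scaled on clean reads (-2.35, limma, adjusted p = 0.00646), but not when scaled on other families (-2.13, limma, adjusted p = 0.0854) or by the median ratio (-1.84, limma, adjusted p = 0.118).

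The change of miR167a/b towards ripening was 2.62 higher on the log2 scale in the second batch than in the first (SE 1.06, limma, unadjusted p = 0.0385, adjusted p = 0.240). The median of this difference over all 71 sequences was 1.11. The unadjusted p was over 0.05 under all 3 other scalings, with values of 2.26 on other families, 1.91 by the median ratio and 1.35 on clean reads, and it reached 0.128 with 1 library left out, that of 40DAF in the first batch. Pooled reads gave ripening to early ratios of 3.31 in the second batch (95% interval 0.536 to 15.5, on 3 and 6 reads) and 0.405 in the first (0.235 to 0.672, on 22 and 57 reads). Over both batches the ripening libraries averaged 20.9 ± 17.1 TPM and the early ones 44.2 ± 48.0 TPM (SD, n = 4 each), a log2 fold change of -0.26 (95% interval -2.97 to 2.45, limma, adjusted p = 0.903) that turned positive without the 10DAF or 20DAF library of the first batch or the 30DAF library of the second, with 0.72 as its highest value. At 10DAF and 20DAF of the second batch, miR167a/b had 1 and 5 reads beside 78 and 168 reads of miR167d/f, its neighbour by 1 base. That is 1.28 and 2.98 reads per 100 reads of miR167d/f, and the part of mismatched reads in such levels was not tested.

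miR167e, the form with the altered seed, was near or under the floor throughout. It had 5 reads at 10DAF of the second batch (8.27 TPM), 1 read at 40DAF of the first (4.29 TPM) and none in the other 6 libraries, where a count of 0 allows up to the floor of each library. Its mean of 1.57 TPM ranked 64th of the 71 sequences. Its log2 fold change at ripening against early stages was -0.13 (95% interval -1.01 to 0.75, limma, adjusted p = 0.857), and no difference was detectable at this depth.

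The counts of called miR167 sequences stood as follows beside those over all 71 sequences. At the unadjusted threshold 1 of 4, miR167c, was called at 30DAF against 10DAF, beside a background of 14.1% of all sequences, and at 40DAF against 10DAF, beside 22.5%. None of the 4 was called at 20DAF against 10DAF (7.04% of all), 30DAF against 20DAF (5.63%), 40DAF against 20DAF (14.1%) or 40DAF against 30DAF (9.86%). On adjusted p none of the 4 passed at 30DAF against 10DAF (2.82% of all) or 40DAF against 10DAF (7.04%), and no sequence of the table passed in the other 4 comparisons of stages (0%). At ripening against early stages 0 of 4 passed on adjusted p by limma (5.63% of all) and 1, miR167c, on the unadjusted threshold (25.4%). Between the batches 0 of 4 passed on adjusted p (2.82%) and 1, miR167a/b, on the unadjusted threshold (18.3%). For the difference of the ripening change between the batches 0 of 4 passed on adjusted p (2.82%) and 1, miR167a/b, on the unadjusted threshold (19.7%). With shares of 1 in 4 beside these backgrounds, the counts do not set the family apart from the rest of the table.

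The median log2 fold change at ripening against early stages was -0.32 over the 4 members and 0.08 over all 71 sequences. All 4 members were below 0, beside 46.5% of all sequences. Of these members miR167e rests on 6 reads. miR167d/f and miR167a/b turned positive with certain single libraries left out, up to 0.36 and 0.72. Between the batches the median was -0.997 over the members and -0.15 over all. The values of miR167d/f between the batches were 116 ± 55.7 TPM in the second and 222 ± 78.9 TPM in the first (SD, n = 4 each), a log2 fold change of -1.02 (95% interval -2.47 to 0.43, limma, adjusted p = 0.416).

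**Figure D2:**
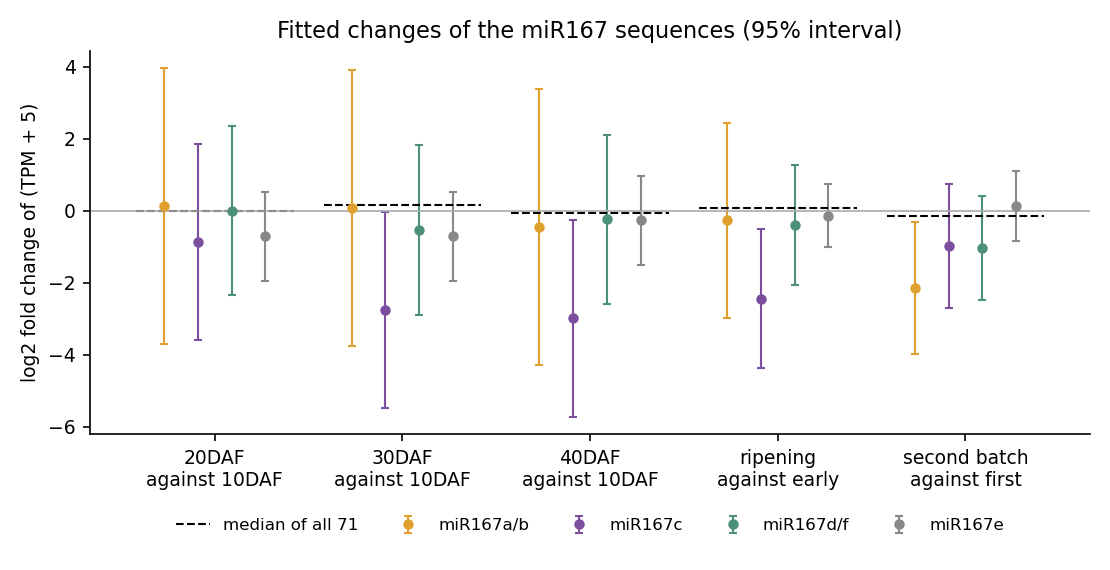
Fitted log2 fold change of (TPM + 5) with its 95% interval from limma (y axis) for each miR167 sequence in 5 comparisons (x axis), with the later stage, ripening or the second batch on top of the fold change. Dashed lines are the median of all 71 sequences. The intervals of miR167c lie below 0 at 30DAF and 40DAF against 10DAF and at ripening against early stages, and that of miR167a/b lies below 0 between the batches; no adjusted p was under 0.05.

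The make-up of the family was also followed as the share of each sequence in the miR167 reads of a library, a measure that the scaling of a library cannot move. The second batch held 107, 183, 5 and 20 miR167 reads at 10, 20, 30 and 40DAF, and the first held 127, 114, 161 and 42. miR167d/f made up 72.9, 91.8, 80.0 and 85.0% of them in the second batch and 55.1, 53.5, 85.1 and 90.5% in the first. It was thus the largest share in all 8 libraries, and its lowest shares were those of 10DAF and 20DAF in the first batch, with 95% exact Clopper-Pearson intervals of 46.0 to 64.0% and 43.9 to 62.9%. The 5 reads at 30DAF of the second batch leave an interval of 28.4 to 99.5%.

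miR167c made up 21.5, 5.46, 0 and 5.0% of the miR167 reads at 10, 20, 30 and 40DAF of the second batch, and 21.3, 22.8, 3.11 and 0% in the first. All 4 ripening shares were below all 4 early shares, by 5.0 against 5.46% where they came closest. In the second batch the ripening shares rest on 0 of 5 reads (95% exact Clopper-Pearson interval 0 to 52.2%) and 1 of 20 reads (0.127 to 24.9%), intervals that hold the early shares. They averaged 2.03 ± 2.46% in ripening libraries and 17.8 ± 8.22% in early libraries (SD, n = 4 each), a difference of -15.7 percentage points with an exact two-sided permutation p of 0.0286, the smallest these libraries can give, and an adjusted p of 0.171 over the 6 share tests. The difference was -11.0 points within the second batch and -20.5 points within the first. The 10DAF shares of the batches were alike, while at 20DAF the second batch was already at 5.46%, with an exact interval of 2.65 to 9.82%.

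The share of miR167d/f averaged 85.1 ± 4.28% in ripening libraries and 68.3 ± 17.9% in early libraries (SD, n = 4 each), a difference of 16.8 points (exact permutation p = 0.143, adjusted p = 0.400). Nearly all of it came from the first batch, with 0.147 points within the second batch and 33.5 points within the first. The share of miR167a/b was 0.935, 2.73, 20.0 and 10.0% in the second batch and 23.6, 23.7, 11.8 and 7.14% in the first. It differed by -0.506 points at ripening against early stages (exact permutation p = 1) and by -8.15 points at the second batch against the first (exact permutation p = 0.200, adjusted p = 0.400).

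**Figure D3:**
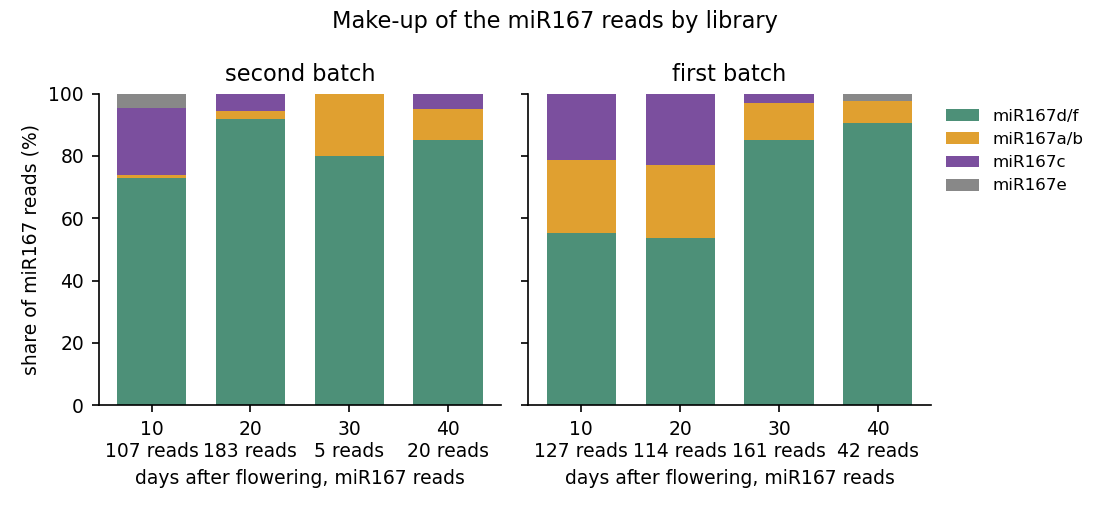
Share in percent of each distinct sequence in the miR167 reads of a library (y axis, from 0), by days after flowering (x axis, with the number of miR167 reads), in the second batch (left) and the first batch (right). miR167d/f is the largest part of every bar, and the miR167c part is at or under 5.0% in all 4 bars of 30DAF and 40DAF.

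The family total, each distinct sequence counted once, was 177, 186, 47.6 and 148 TPM at 10, 20, 30 and 40DAF of the second batch and 403, 317, 392 and 180 TPM in the first. As deposited the second batch was below the first at every stage, and miR167 took 0.0094 to 0.0687% of the TPM of all distinct sequences. The ripening libraries averaged 192 ± 145 TPM and the early libraries 271 ± 109 TPM (SD, n = 4 each), a ratio of 0.709, with 0.540 in the second batch and 0.794 in the first. The ratio was 0.336 scaled on other families, 0.454 on clean reads and 0.570 by the median ratio. The log2 of that ratio was -0.50, and it was -1.11 without the 30DAF library of the first batch and -0.17 without that of the second. The second batch averaged 140 ± 63.4 TPM and the first 323 ± 103 TPM (SD, n = 4 each), a ratio of 0.432. By stage that ratio was 0.439, 0.587, 0.122 and 0.823 at 10, 20, 30 and 40DAF, with the batches closest at 40DAF. This order depends on the scaling: the second batch was above the first at 10DAF and 20DAF by the median ratio (1.14 and 1.13) and at 20DAF on clean reads (1.31), and 40DAF was then at 0.701 and 0.332. A total over chosen members was given no test.

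Over the 8 libraries the 3 main members were moderately correlated on the log2 scale, with Pearson's r of 0.53 between miR167a/b and miR167c, 0.49 between miR167a/b and miR167d/f and 0.47 between miR167c and miR167d/f. Among the 49 sequences outside the family with a mean of at least 10 TPM, the 3 most like the family total were miR399c (r = 0.756), miR172a (r = 0.742) and miR408 (r = 0.678). The same 3 came closest to miR167d/f, with r of 0.762 for miR399c, 0.646 for miR408 and 0.591 for miR172a. At 10, 20, 30 and 40DAF, miR399c stood at 3.31, 4.06, 0 and 0 TPM in the second batch. In the first batch it stood at 9.53, 24.99, 65.7 and 12.87 TPM. It was at or under the floor at 10DAF and 40DAF of the first batch and at 10, 30 and 40DAF of the second. miR408, which targets mRNAs of copper proteins in Arabidopsis, stood at 13.2, 17.2, 19.0 and 14.8 TPM in the second batch and 85.8, 230, 484 and 112 TPM in the first. The points of these correlations share the batch difference. With each batch centred on its own mean, the r with the family total was 0.417 for miR399c, 0.324 for miR172a and 0.0817 for miR408. Centred in the same way, the r with miR167d/f was 0.544 for miR399c, 0.202 for miR408 and 0.0488 for miR172a. These correlations are descriptions over 8 libraries with differing totals.

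Other miRNA families linked to auxin in Arabidopsis were listed for comparison. miR160 targets auxin response factors of another group, miR164 targets NAC factors that include the auxin-induced NAC1, miR390 starts the small RNAs that silence ARF3 and ARF4, and miR393 targets the auxin receptors TIR1 and AFB. The table holds 7 distinct sequences of these 4 families. At ripening against early stages 1 of 7, miR164c/d, rose on adjusted p, beside 5.63% of all sequences called, and none fell. It stood at 87.7, 1046, 5843 and 10310 TPM at 10, 20, 30 and 40DAF of the second batch and at 581, 1133, 7475 and 9840 TPM in the first, all ripening libraries being above all early ones. Its log2 fold change was 4.02 (SE 0.59, limma, adjusted p = 0.0228). It was also the only one of the 7 called at 30DAF and 40DAF against 10DAF, with log2 fold changes of 4.83 (adjusted p = 0.0447) and 5.43 (adjusted p = 0.0294) by limma. None of the 7 was called between the batches, on the unadjusted threshold (18.3% of all) or on adjusted p (2.82%), and for the difference of the ripening change between the batches 2 of 7, miR164a and miR393a/b/c, passed the unadjusted threshold only, beside 19.7% of all.

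By mean level over the 8 libraries the miR167 family stood between miR164 (5750 TPM) and miR393 (457 TPM) above and miR160 (29.6 TPM) and miR390 (23.3 TPM) below. miR160 stood at 23.2, 16.2, 28.6 and 14.8 TPM at 10, 20, 30 and 40DAF of the second batch and at 89.0, 41.7, 19.5 and 4.29 TPM in the first, where like miR167a/b it was highest at 10DAF and lowest at 40DAF. miR390 had 56.3, 18.3, 38.1 and 14.8 TPM in the second batch and 28.6, 16.7, 9.73 and 4.29 TPM in the first, much of it near the floor. miR393 had 369, 238, 314 and 534 TPM in the second batch and 889, 658, 280 and 377 TPM in the first, with its highest value at 40DAF in the second batch and at 10DAF in the first. None of miR160, miR390 and miR393 passed a comparison of stages.

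**Figure D4:**
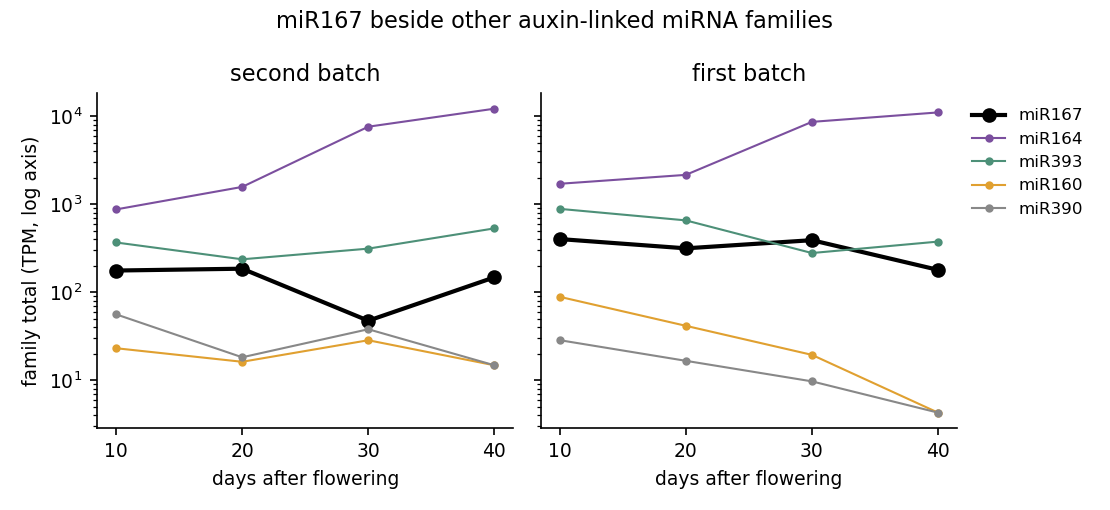
Summed TPM of the distinct sequences of miR167 (black) and of 4 other auxin-linked families (y axis, log scale) against days after flowering (x axis), in the second batch (left) and the first batch (right), 1 library per point. The miR164 line runs from 877 to 12245 TPM over the stages in the second batch and from 1715 to 11105 TPM in the first, while miR167 stays between 47.6 and 403 TPM.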

How the data were processed

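The authors trimmed the reads with FASTX-Toolkit 0.0.13, kept those of small RNA length, removed matches to Rfam 12.0 rRNA and tRNA with Bowtie, and matched the rest to miRBase 21 with up to 1 mismatch. The deposited values are RPM, which the authors call TPM: a miRNA's reads were divided by a total for the library and multiplied by a constant. The number that ends a library's name was taken as its batch. Names with the same mature sequence each carry its full value, so each sequence was kept once. An empty field too many in 1 line was removed.

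The TPM of a single read was taken from the low values of each library (34 to 45 of them, 100% whole within 0.1 read), and the total behind the values follows from it. Counting intervals are 95% exact Poisson and, for shares, exact Clopper-Pearson intervals.

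log2(TPM + 5) was fitted with limma 3.58.1 (R 4.3.3) with a mean-variance trend, first tested on simulated data, with no filter on low values. Stages were called at unadjusted p under 0.05 with a fold over 1.5. Ripening, batch (stage as covariate) and their interaction, in which the stages of a kind within a batch stand as replicates, were called at Benjamini-Hochberg adjusted p under 0.05 over 71 sequences. Exact two-sided permutation tests had 35 arrangements, for 8 comparisons of single members and 6 of shares. The libraries of a batch deviated together in 6 of 6 pairs of stages (r 0.352 to 0.664), so the batch was also fitted as a block with limma. The permutation tests exchanged libraries across batches, and their p values do not take this into account. Hairpins from the study's list were folded with RNAfold 2.7.2.

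The text names all miR167 sequences, the sequences of the auxin list that were called, and the 3 sequences most like the family total and miR167d/f. The values of the auxin families were added after they were seen. The members and lists were chosen with earlier results of these data known. Alternatives were other pseudocounts, filters, scalings and models, and each library left out. The clean reads used for a scaling are the totals the study gives for its libraries. The differential expression results of the study were not used.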

Additional observations from a re-analysis of the deposited data

Results flagged for a closer look

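Among the 4 ripening libraries, miR167a/b stood far from the others in the 30DAF library of the first batch, at 46.2 TPM on 19 reads, against 9.52, 14.8 and 12.9 TPM. miR167e stood apart in its few libraries with a read. It was at 8.27 TPM at 10DAF of the second batch, among the early libraries and among those of the second batch, and at 4.29 TPM at 40DAF of the first batch, among the ripening libraries and among those of the first batch, with 0 in the rest of each group, so that a single value above 0 sufficed. In all, 20 groups of 4 libraries were looked at, and for normally distributed values chance marks about 1 in 20 such groups.

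The change of miR167a/b towards ripening differed between the batches by 2.62 on the log2 scale, second minus first (limma, unadjusted p = 0.0385, adjusted p = 0.240), beside a median of 1.11 over all 71 sequences.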

How the results depend on the processing

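At 30DAF against 10DAF 0 sequences were called with a pseudocount of 1, with only the stages compared, and with voom on the recovered reads (added after seeing the data), and at 40DAF against 10DAF 0 with the first 2 of these. With each library scaled on the families other than miR159, miR319 and miR396, 1 sequence, miR167c, was called at 30DAF and at 40DAF against 20DAF and, on adjusted p, at ripening against early stages, where its log2 fold change was -3.16 (limma, adjusted p = 0.0258; 0.0258 to 0.376 over all alternatives), beside a median of all sequences of -0.53. The same scaling also took miR167c past adjusted p at 40DAF against 10DAF (-3.89, limma, adjusted p = 0.0455). miR167c was the 1 sequence called at 40DAF against 20DAF with median-ratio scaling. Scaled on clean reads (added after seeing the data), 1 sequence was called at 40DAF against 20DAF and at ripening against early stages, miR167c, and 1 between the batches, miR167a/b. The log2 ratio of the family total at ripening against early stages, -0.50, was -1.57 when scaled on other families, and that of the second batch against the first, -1.21, was -0.41 with median-ratio scaling. miR167a/b at ripening against early stages reversed to 0.46 with voom.

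Of all sequences past the unadjusted threshold, 12 were higher and 6 lower at ripening against early stages, against 3 and 14 scaled on other families, 2 and 13 on clean reads and 9 and 7 by the median ratio. Between the batches 3 were higher and 10 lower, against 5 and 13 scaled on other families, 4 and 17 on clean reads and 10 and 8 by the median ratio. At 40DAF against 10DAF 10 were higher and 6 lower, against 5 and 17, 2 and 15, and 8 and 7 under those scalings.

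With 1 library left out at a time, where a lone library of a stage is assumed to vary like the others, the number of miR167 sequences called was 0 to 1 at 20DAF against 10DAF, 0 to 2 at 30DAF against 10DAF, and 0 to 1 at 40DAF against 10DAF, 30DAF against 20DAF, 40DAF against 20DAF and 40DAF against 30DAF. It was 0 on adjusted p in the other comparisons. The added calls were miR167d/f (3 comparisons with 30DAF, without the 30DAF library of the first batch), miR167e (20DAF and 30DAF against 10DAF, without the 10DAF library of that batch) and miR167c (40DAF against 20DAF, without the 20DAF library of the second). The log2 fold changes at ripening against early stages ran from -3.02 to -1.85 for miR167c, -1.13 to 0.36 for miR167d/f and -1.24 to 0.72 for miR167a/b. The miR167c fold changes ran from -3.64 to -1.86 at 30DAF and from -3.64 to -2.33 at 40DAF against 10DAF. The log2 ratio of the family total ran from -1.11 to -0.17 at ripening against early stages and from -1.41 to -0.92 between the batches. Shares moved from -19.8 to -14.0 points for miR167c (exact permutation p = 0.0571 each time, the smallest p that 4 against 3 libraries allow), -4.44 to 3.14 points for miR167a/b and 11.9 to 24.6 points for miR167d/f at ripening against early stages, and from -8.31 to -0.132, -12.0 to -5.65 and 5.53 to 17.9 points between the batches. Without both 30DAF libraries, also added after seeing the data, miR167c was at -2.55 (limma, adjusted p = 0.283).

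The batch as a replicate block changed no call, and miR167c at ripening against early stages was -2.44 with it (limma, adjusted p = 0.0945). The planned edgeR and DESeq2 models were not run, since whole reads rest on few low values. The counting intervals, pooled read ratios, share intervals and voom use the same recovered reads and share this limit. Depth limits miR167c, miR167a/b and miR167e most at 30DAF and 40DAF of the second batch, where 3 reads are 28.6 and 22.2 TPM. The causes were not tested.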
